A study of Mus musculus with 16 samples.

Results

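The 9 genes described here encode enzymes of the tricarboxylic acid (TCA) cycle in the mouse heart: Cs, Idh3a, Idh3b, Idh3g, Idh2, Ogdh, Suclg1, Fh1 and Mdh2. They were chosen by gene symbol from the 30884 genes of the deposited tables, and all 9 were among the 14716 genes abundant enough to be tested. The study sequenced RNA from heart tissue of male wild-type C57BL/6 mice aged 8 weeks, with 4 libraries in each of 4 groups. Doxorubicin, an anthracycline used against tumours whose dose is limited by damage to the heart, was injected once into the abdomen at 15 mg/kg. The sham groups received saline in its place. The NMN groups had nicotinamide mononucleotide, which cells convert to NAD, by the same route at 500 mg/kg, 30 min ahead of doxorubicin or saline, and the vehicle groups had saline instead. Hearts were taken 5 days after doxorubicin or saline. The groups are therefore sham vehicle (saline and saline), sham NMN, doxorubicin vehicle and doxorubicin NMN. The labels number the replicates without saying more of their origin, and the spread behind each p-value may in part be technical.

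The cycle oxidises the acetyl group of acetyl-CoA to carbon dioxide in the mitochondrial matrix and hands the electrons to the respiratory chain, mostly as NADH. Citrate synthase admits the acetyl group, the isocitrate and alpha-ketoglutarate dehydrogenases release carbon dioxide, and the steps from succinyl-CoA onward regenerate oxaloacetate. Heart muscle draws most of its ATP from this oxidation, and NAD, which NMN feeds, is the coenzyme of isocitrate dehydrogenase 3, of the alpha-ketoglutarate dehydrogenase complex and of malate dehydrogenase.

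On GRCm38, as the deposited table gives positions, Cs lies at chr10:128337734-128362479, Idh3a at chr9:54586334-54604661, Ogdh at chr11:6291633-6356642, Suclg1 at chr6:73248382-73276911 and Mdh2 at chr5:135778480-135790398, all on the plus strand. Idh3b at chr2:130279309-130284547, Idh3g at chrX:73778963-73786897, Idh2 at chr7:80094846-80115392 and Fh1 at chr1:175600374-175625635 lie on the minus strand. All 9 are protein-coding in GENCODE M21, and only Idh3b shares exonic bases with another gene there, 5 of them with Nop56 on the opposite strand.

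Sequence upstream of the genes is shown for Cs and Suclg1, which fell with doxorubicin, and for Idh2, which rose, because these genes mark both directions of the response. Each window is 300 bases of RefSeq's promoter table on GRCm38.p6, from 250 bases before to 50 bases after the start of transcription, read 5′ to 3′ on the gene's strand. Capitals mark the CCAAT box on either strand, a common element of promoters.
Cs, chr10:128337477-128337776, plus strand: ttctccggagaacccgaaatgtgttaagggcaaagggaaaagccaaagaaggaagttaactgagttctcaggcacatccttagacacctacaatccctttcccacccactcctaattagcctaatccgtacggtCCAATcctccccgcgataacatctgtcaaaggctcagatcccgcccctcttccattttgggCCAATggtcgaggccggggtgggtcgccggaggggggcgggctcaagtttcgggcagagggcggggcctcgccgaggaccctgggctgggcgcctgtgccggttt
Suclg1, chr6:73248255-73248554, plus strand: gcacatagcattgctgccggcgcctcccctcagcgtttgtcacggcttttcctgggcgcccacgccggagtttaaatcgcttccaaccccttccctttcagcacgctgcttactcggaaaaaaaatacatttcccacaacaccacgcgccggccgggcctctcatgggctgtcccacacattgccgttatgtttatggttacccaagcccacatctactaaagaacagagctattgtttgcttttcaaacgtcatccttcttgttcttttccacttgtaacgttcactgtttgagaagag
Idh2, chr7:80115301-80115600, minus strand: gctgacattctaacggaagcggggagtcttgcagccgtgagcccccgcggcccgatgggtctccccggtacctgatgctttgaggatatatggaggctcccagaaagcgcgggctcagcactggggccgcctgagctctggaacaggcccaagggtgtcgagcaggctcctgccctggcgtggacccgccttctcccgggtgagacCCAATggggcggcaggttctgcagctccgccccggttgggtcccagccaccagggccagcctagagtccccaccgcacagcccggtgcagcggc
The Cs window held CCAAT at 2 places, the Idh2 window at 1 place, and the Suclg1 window had none of the 6 motifs searched on both strands. The table held windows for 8 of the 9 genes (not for Idh3a). Ogdh had 6 starts, more than the others, so more of its sequence was searched and its motifs are not evenly compared with theirs. CCAAT was in the windows of 5 of these 8 genes (Cs, Idh3b, Idh2, Ogdh and Fh1), against 41.1% of the 27025 genes with a window. CCGGAAG, the core bound by ETS factors, was in those of Idh3b and Idh3g, against 9.93% of genes. TGACGTCA, the cyclic AMP response element, was in those of Ogdh and Mdh2, against 2.03% of genes. AAGGTCA, a motif of the oestrogen-related receptors, CGCATGCG, the core of the NRF1 site, and CACGTG, the E-box, were found in the windows of Ogdh alone among the 8 genes, against 5.38%, 2.07% and 8.09% of genes. The GC content was 58.7% for Cs, 51.0% for Suclg1 and 68.3% for Idh2, against a median of 52.8% over all genes.

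Libraries held 13927970 to 16400069 counted reads, of which the 9 genes took 0.931% ± 0.0640 (SD, n = 4) in doxorubicin vehicle hearts and 0.968% ± 0.0311 (SD, n = 4) in sham vehicle hearts. The lowest count of any of the 9 genes in any library was 3546, for Suclg1. The 16 libraries also fell into 2 parts that the labels do not name, drawn from the levels of Scand1, Cox11 and Mrps34 after the data were seen. The second part held 6 libraries, namely sham vehicle 3 and 4, sham NMN 4, doxorubicin vehicle 3 and 4, and doxorubicin NMN 4, and the first part held the other 10. The 10 cardiomyocyte markers, all of them detected, summed to 66412 to 74562 CPM (read counts scaled to 1000000 per library, with TMM factors) in sham vehicle and 61734 to 68377 CPM in sham NMN hearts. They summed to 20752 to 31506 CPM in doxorubicin vehicle and 38194 to 66018 CPM in doxorubicin NMN hearts. Of the 10, 9 fell with doxorubicin and rose with NMN given before it. Tnnt2 did not fall, at a mean of 6881 CPM in sham vehicle and 9118 CPM in doxorubicin vehicle hearts. Myh6 and Actc1 had the largest drops in the sum, from means of 29353 and 10638 CPM to 3628 and 846 CPM. Pln fell less, from 907 to 735 CPM. All 5 neutrophil markers rose with doxorubicin, from a sum of 1.37 to 5.40 CPM to one of 31.0 to 86.3 CPM. All 3 erythroid markers fell with doxorubicin, from a sum of 304 to 519 CPM to one of 0.378 to 2.42 CPM. Of the 4 atrial markers 3 fell. Their sums overlapped, at 11.7 to 219 CPM in sham vehicle and 9.37 to 18.3 CPM in doxorubicin vehicle hearts. Of the 7 fibroblast markers 4 fell and 1 rose, of the 5 endothelial markers 1 fell and 1 rose, and of the 5 macrophage and 5 smooth muscle markers 2 and 1 fell. With NMN before doxorubicin 4 of the 5 neutrophil markers fell, to a sum of 4.84 to 14.7 CPM. All 3 erythroid and 3 of the 4 atrial markers were called higher, but unevenly. The erythroid sum ran from 0.377 to 291 CPM, and heart 3 stood apart. Hbb-bs was at 2.56, 0, 174 and 0.478 CPM in the 4 doxorubicin NMN hearts. The atrial marker Myl7 was at 71.3, 39.9, 4.33 and 0.0683 CPM there. No marker was at 0 in every library. The part of these shifts in the results on the 9 genes was not tested, and in whole tissue fewer cells of a type and less RNA per cell cannot be told apart.

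Doxorubicin lowered 6 of the 9 genes and raised 1. Cs, Idh3a, Ogdh, Suclg1, Fh1 and Mdh2 fell, Idh2 rose, and Idh3b and Idh3g did not pass the test. The median log2 fold change over the 9 genes was -0.35, against 0.0054 over all genes tested. In the same comparison 48.7% of all tested genes were called (edgeR quasi-likelihood test, Benjamini-Hochberg adjusted p under 0.05), 24.8% higher and 23.9% lower, and the 7 calls among the 9 genes are to be read against that background.

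**Figure D1:**
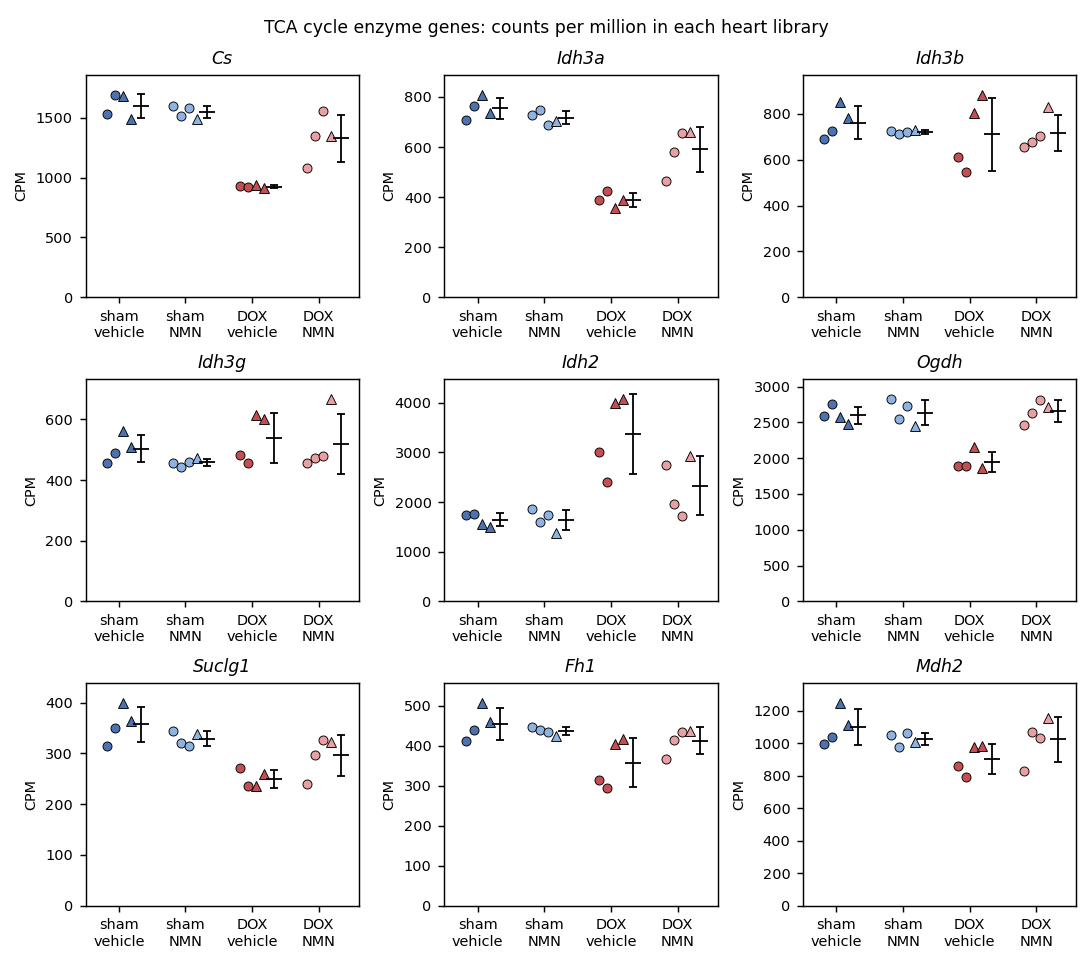
Scaled read counts (CPM, vertical axes, from 0) of the 9 genes in the 16 heart libraries, by group. Circles are the 10 libraries of the first part and triangles the 6 of the second part, and black bars give the mean and SD of each group. The doxorubicin vehicle libraries of Cs lie between 913 and 934 CPM, below every other library, and those of Idh2 lie between 2399.8 and 4073 CPM, above both sham groups.

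Cs encodes citrate synthase, which joins acetyl-CoA to oxaloacetate. Its level was 1530.4, 1691, 1677 and 1489 CPM in the 4 sham vehicle hearts and 931, 918, 934 and 913 CPM in the 4 doxorubicin vehicle hearts. The groups did not overlap, and the doxorubicin hearts lay close together. Cs fell by 0.79 on the log2 scale (SE 0.10, edgeR adjusted p = 1.7e-05).

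Isocitrate dehydrogenase 3, the NAD-dependent enzyme of the cycle, is built of a catalytic alpha subunit (Idh3a) and of beta and gamma subunits (Idh3b and Idh3g) that take part in its regulation. Idh3a was at 708, 764, 809 and 735 CPM in sham vehicle and at 388, 423, 355 and 387 CPM in doxorubicin vehicle hearts. It fell by 0.96 on the log2 scale (SE 0.10, edgeR adjusted p = 5.5e-06), without overlap and by the largest amount among the 9 genes. Idh3b was at 690.0, 724, 850.5 and 783 CPM in sham vehicle and at 609.9, 545, 805 and 883 CPM in doxorubicin vehicle hearts. Its doxorubicin hearts lay on both sides of the sham hearts, with a log2 difference of -0.10 (SE 0.13, edgeR adjusted p = 0.55). Idh3g was at 455, 488, 561 and 509 CPM in sham vehicle and at 482, 455, 614 and 603 CPM in doxorubicin vehicle hearts, with a log2 difference of 0.10 (SE 0.13, edgeR adjusted p = 0.54). In both genes hearts 3 and 4, of the second part, were the higher ones in sham vehicle as in doxorubicin vehicle hearts. Sham NMN heart 4 and doxorubicin NMN heart 4, also of the second part, were the highest of their groups. The sign of both differences turned in some fits: that of Idh3b was 0.0054 without doxorubicin vehicle heart 2 and 0.036 within the second part, and that of Idh3g was -0.010 within the first part.

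Idh2 encodes the NADP-dependent mitochondrial isocitrate dehydrogenase, which makes NADPH. It was at 1739.7, 1767, 1563 and 1496 CPM in sham vehicle hearts and at 3012, 2399.8, 3992 and 4073 CPM in doxorubicin vehicle hearts. Every doxorubicin heart was above every sham heart, and hearts 3 and 4 were the highest. Idh2 rose by 1.04 on the log2 scale (SE 0.18, edgeR adjusted p = 2.7e-04). The rise passed the test in both parts of the libraries, at 0.62 (SE 0.19, edgeR adjusted p = 0.027) in the first and 1.39 (SE 0.08, edgeR adjusted p = 9.6e-08) in the second.

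Ogdh encodes the first component of the alpha-ketoglutarate dehydrogenase complex, the decarboxylase. It was at 2588, 2756, 2577 and 2473 CPM in sham vehicle and at 1890.4, 1888, 2149 and 1859 CPM in doxorubicin vehicle hearts, again without overlap, with heart 3 apart from the other three. Ogdh fell by 0.42 on the log2 scale (SE 0.09, edgeR adjusted p = 9.6e-04). Suclg1 encodes the alpha subunit of succinyl-CoA ligase, the enzyme that forms ATP or GTP directly. It was at 315, 351, 399 and 364 CPM in sham vehicle and at 271, 235, 235 and 259 CPM in doxorubicin vehicle hearts. All 4 doxorubicin hearts were below the lowest sham heart, and Suclg1 fell by 0.51 on the log2 scale (SE 0.10, edgeR adjusted p = 7.4e-04).

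Fh1 encodes fumarase, which hydrates fumarate to malate. It was at 412, 440.2, 507 and 461 CPM in sham vehicle and at 315, 295, 404 and 416 CPM in doxorubicin vehicle hearts. The groups met at their edges: doxorubicin heart 4 was above sham heart 1. Fh1 fell by 0.35 on the log2 scale (SE 0.11, edgeR adjusted p = 0.016), and this call was lost without sham vehicle heart 3, at -0.29 (edgeR adjusted p = 0.056), and in the fit of the 2 groups alone, at -0.36 (edgeR adjusted p = 0.055). Mdh2 encodes mitochondrial malate dehydrogenase, which regenerates oxaloacetate. It was at 994, 1039, 1245 and 1110.0 CPM in sham vehicle and at 861, 794, 978 and 980.4 CPM in doxorubicin vehicle hearts, without overlap but by a narrow margin. Its fall of 0.28 on the log2 scale (SE 0.11, edgeR adjusted p = 0.044) was the least secure of the 6. It no longer passed in 12 of 33 alternative fits, among them those without sham vehicle heart 3 (-0.22, edgeR adjusted p = 0.14) or 4 (-0.28, adjusted p = 0.080), without doxorubicin vehicle heart 1 (-0.26, adjusted p = 0.091) or 2 (-0.23, adjusted p = 0.10), without sham NMN heart 1, 2 or 3 (-0.28 each, adjusted p = 0.053, 0.052 and 0.053) and without doxorubicin NMN heart 2 (-0.28, adjusted p = 0.051).

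NMN given before doxorubicin moved 4 of the 9 genes away from the doxorubicin vehicle level. Cs, Idh3a and Ogdh rose, Idh2 fell, and the other five did not pass the test. In 4 alternative fits, with upper-quartile scaling, limma on filtered FPKM with either pseudocount, or the split of the libraries as a term, 6 were called, with Suclg1 at 0.25 to 0.32 and Fh1 at 0.23 to 0.29 added. Other alternatives gave 3 calls, with Idh2 lost. These were the fit of the 2 groups alone, limma on unfiltered FPKM, and a threshold of 0.01. Leaving out doxorubicin vehicle heart 3 or 4, or doxorubicin NMN heart 2 or 3, also gave 3. Among all tested genes 36.3% were called in this comparison, 17.5% higher and 18.8% lower. The 4 calls among the 9 genes are to be read against that background. The median over the 9 genes was 0.21, against 0.0038 over all genes tested. This comparison shares the doxorubicin vehicle hearts with the one above, so opposite signs in both are not independent of each other.

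Cs was at 1075, 1344, 1554 and 1344 CPM in the 4 doxorubicin NMN hearts, all above the doxorubicin vehicle hearts. The rise was 0.53 (log2, SE 0.10, edgeR adjusted p = 8.7e-04), with heart 1 lowest and heart 3 within the range of sham hearts. Idh3a was at 465, 579.6, 657 and 661 CPM, again all above the doxorubicin vehicle hearts, and rose by 0.60 (log2, SE 0.10, edgeR adjusted p = 4.8e-04). Ogdh was at 2458, 2631, 2814 and 2721 CPM, and its rise was 0.45 (log2, SE 0.09, edgeR adjusted p = 0.0011). The lowest of these Ogdh values was above the highest doxorubicin vehicle heart.

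Idh2 was at 2739, 1953, 1710.4 and 2920.0 CPM in doxorubicin NMN hearts, a range that overlapped the doxorubicin vehicle hearts. It fell by 0.53 on the log2 scale against doxorubicin vehicle (SE 0.18, edgeR adjusted p = 0.031). The call was lost in 8 of 33 alternative fits, the second part being among the 33 although no call with NMN is given for it. The 8 included the fits without doxorubicin vehicle heart 3 (-0.44, edgeR adjusted p = 0.10) or 4 (-0.43, adjusted p = 0.10). They also included those without doxorubicin NMN heart 2 (-0.45, edgeR adjusted p = 0.10) or 3 (-0.40, adjusted p = 0.11), and the first part of the libraries (-0.34, adjusted p = 0.17). Suclg1 differed by 0.24 (log2, SE 0.10, edgeR adjusted p = 0.074), with doxorubicin NMN heart 1 at 239 CPM and the other three at 297, 326 and 323 CPM. Without that heart the difference was 0.34 and passed the test (edgeR adjusted p = 0.0094), and likewise for Mdh2, at 0.27 (edgeR adjusted p = 0.045), from 0.18 (adjusted p = 0.21) with all hearts. Fh1 differed by 0.21 (adjusted p = 0.15), and by 0.13 without doxorubicin vehicle heart 2. Mdh2 differed by 0.12 without doxorubicin NMN heart 4. Idh3b and Idh3g differed by 0.011 and -0.055 (adjusted p = 0.96 and 0.76), signs that turned when single doxorubicin hearts were left out.

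NMN alone gave no call among these genes. In sham NMN against sham vehicle hearts 0 of the 9 genes and 0 of all genes were called (0%, edgeR), with 342 genes at an unadjusted p under 0.05 and 0 calls by DESeq2 or limma-voom. The log2 differences of the 9 genes ran from -0.14 (Idh3g) to 0.02 (Ogdh), and their median was -0.073. In doxorubicin NMN against sham NMN hearts edgeR again called 0 of the 9 genes and 0 of all genes (0%). Here 1223 genes had an unadjusted p under 0.05, DESeq2 called 10 genes and limma-voom 0, and edgeR called 20 genes without doxorubicin NMN heart 3. The largest differences among the 9 were Idh2 at 0.50 (SE 0.18, edgeR adjusted p = 0.51), Idh3a at -0.28 (SE 0.10, adjusted p = 0.51) and Cs at -0.22 (SE 0.10, adjusted p = 0.58). These p-values do not show that the groups are alike.

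The interaction tests whether the doxorubicin effect itself differed with NMN. It was called for Cs at 0.57 (log2, SE 0.14, edgeR adjusted p = 0.012), for Idh3a at 0.68 (SE 0.15, adjusted p = 0.0064) and for Ogdh at 0.43 (SE 0.12, adjusted p = 0.025), all higher with NMN, and the other six did not pass. Of all tested genes 18.4% were called, 9.49% higher and 8.96% lower. The Ogdh call was lost without sham NMN heart 2 (0.42, adjusted p = 0.053), doxorubicin vehicle heart 4 (0.41, adjusted p = 0.051) or doxorubicin NMN heart 3 (0.40, adjusted p = 0.054). For Idh2 the interaction was -0.53 (SE 0.26, adjusted p = 0.15), and it passed without doxorubicin vehicle heart 2, at -0.66 (adjusted p = 0.048). For Suclg1 it was 0.36 (SE 0.15, adjusted p = 0.089), and it passed without doxorubicin NMN heart 1, at 0.46 (adjusted p = 0.018).

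**Figure D2:**
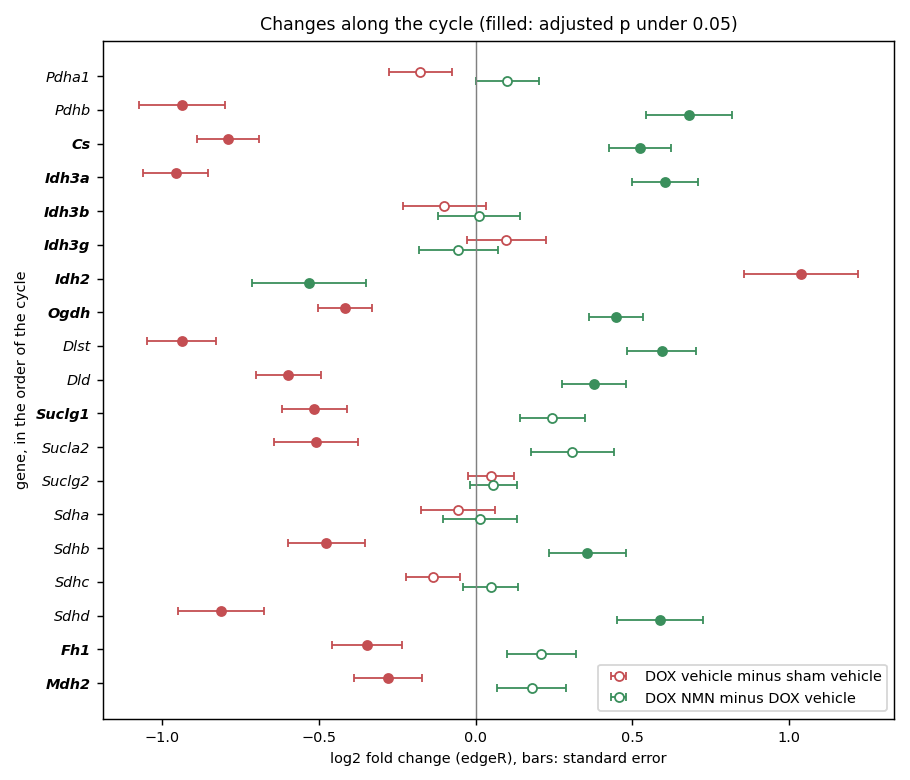
Log2 fold changes with standard errors (horizontal axis) of genes in the order of the cycle, from pyruvate dehydrogenase to malate dehydrogenase, with the 9 genes in bold; red is doxorubicin vehicle minus sham vehicle, green is doxorubicin NMN minus doxorubicin vehicle, and filled points passed the test. Idh2 is the gene furthest to the right in red, at 1.04, and Pdha1, Idh3b, Idh3g, Suclg2, Sdha and Sdhc have open points in both.

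The order of the 9 genes by level was not the same in sham vehicle and doxorubicin vehicle hearts. Per kilobase of gene length (deposited FPKM), sham vehicle hearts held Idh2 at 629 ± 60.3, Ogdh at 472 ± 26.2, Mdh2 at 305 ± 23.8, Cs at 274 ± 16.2 and Idh3b at 220.4 ± 15.8 (SD, n = 4). Idh3g followed at 184 ± 12.4, Idh3a at 147 ± 5.92, Fh1 at 133 ± 8.81 and Suclg1 at 76.6 ± 5.89. Neighbours overlapped for Mdh2 and Cs and for Idh3a and Fh1, and the other neighbours did not. In doxorubicin vehicle hearts Idh2 stood at 1284 ± 228 FPKM, Ogdh at 356 ± 27.6 and Mdh2 at 252 ± 9.64. Cs, at 159.6 ± 11.0 FPKM, was then below Idh3b at 205 ± 32.5 and Idh3g at 198 ± 17.7, which overlapped each other, and Idh3a, at 76.7 ± 10.1, was below Fh1 at 104 ± 11.1. Suclg1, at 54.0 ± 5.01 FPKM, was again the lowest of the 9. The lengths behind FPKM equal all annotated exonic bases of a gene, such as 5779 for Cs and 2588 for Idh2. They are not the length of a single transcript, and the order between genes depends on them.

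Ratios between genes whose products work in one enzyme or on one substrate were taken within each library, where scaling cancels. The Idh3b to Idh3a ratio of CPM, on the log2 scale, was -0.04, -0.08, 0.07 and 0.09 in sham vehicle hearts and 0.65, 0.37, 1.18 and 1.19 in doxorubicin vehicle hearts. That is a difference of 0.83 (SE 0.21) with no overlap. In FPKM the same ratio was 1.50 ± 0.0853 against 2.74 ± 0.741 (SD, n = 4), and Idh3g to Idh3a went from 1.25 ± 0.0572 to 2.63 ± 0.556. The log2 ratio of Idh2 to Idh3a, the NADP-dependent against the NAD-dependent enzyme, was 1.12 ± 0.160 in sham vehicle and 3.09 ± 0.452 in doxorubicin vehicle hearts (SD, n = 4). Fh1 and Mdh2, which catalyse neighbouring steps, kept a log2 ratio of -1.27 ± 0.0238 against -1.35 ± 0.107, with overlap.

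Of 16 such ratio tests (8 ratios, both comparisons), 9 reached p = 0.0286, the smallest that an exact two-sided permutation test of 4 against 4 can give. After Benjamini-Hochberg adjustment over the 16 that p became 0.051, so 0 passed at 0.05, with 9 at an unadjusted p under 0.05. These 9 were the doxorubicin differences in every ratio except Fh1 to Mdh2, and the NMN differences in Idh3g to Idh3a (-0.65) and in Mdh1 to Mdh2 (0.42). Without doxorubicin vehicle heart 2, 10 of the 16 passed, each at an exact permutation adjusted p of 0.046. Those 10 were all at the smallest p possible in that test, so their passing hinged on how many ratios reached it. With NMN before doxorubicin, the Idh3b to Idh3a log2 ratio was 0.50, 0.22, 0.10 and 0.33, below doxorubicin vehicle hearts 1, 3 and 4 and above every sham vehicle heart.

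**Figure D3:**
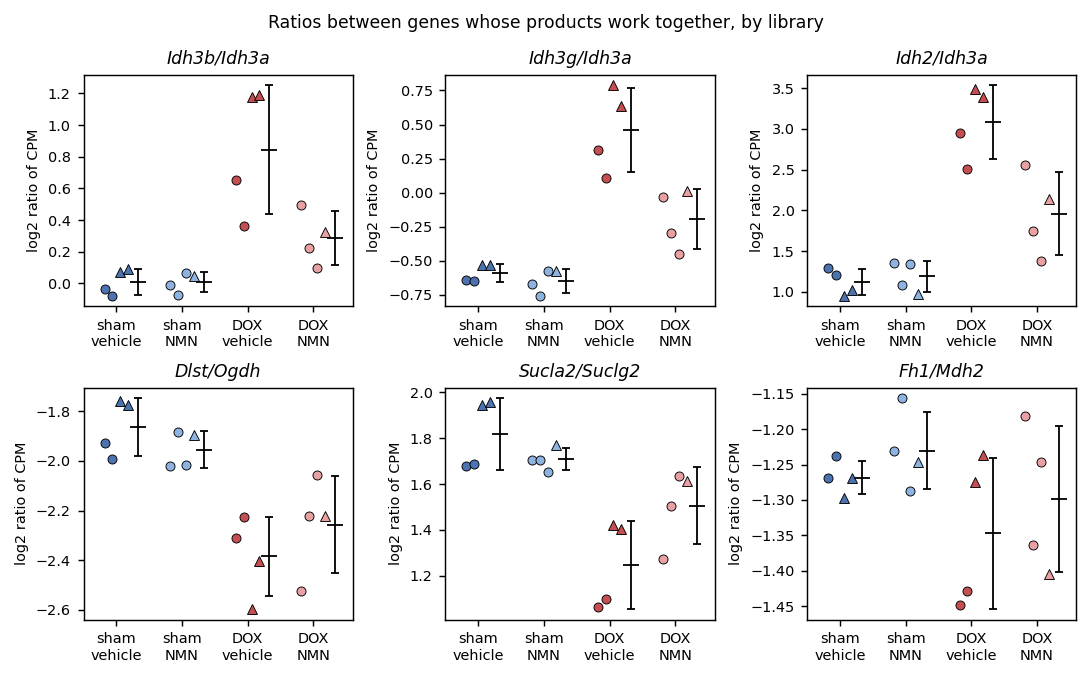
Log2 ratios of CPM (vertical axes) between genes of one enzyme or of neighbouring steps in each of the 16 libraries, with circles for the first part, triangles for the second part, and black bars for the mean and SD of each group. The doxorubicin vehicle hearts lie apart from both sham groups in every panel except Fh1 to Mdh2.

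Of 8 other genes of the cycle, 5 fell with doxorubicin and 3 did not pass, and with NMN before doxorubicin 4 rose and 4 did not pass (edgeR), beside 48.7% of all genes called with doxorubicin and 36.3% with NMN. Dlst and Dld, which encode the other components of the alpha-ketoglutarate dehydrogenase complex, fell by 0.94 (SE 0.11) and 0.60 (SE 0.10) on the log2 scale, and rose with NMN by 0.59 and 0.38. Sucla2, the beta subunit of the ATP-forming succinyl-CoA ligase, fell by 0.51 (SE 0.13, edgeR adjusted p = 0.0050). Suclg2, the beta subunit of the GTP-forming enzyme, differed by 0.05 (SE 0.07, adjusted p = 0.61), and its sign turned under upper-quartile scaling, at -0.03. Among the 4 subunits of succinate dehydrogenase, Sdhb and Sdhd fell by 0.48 (SE 0.12) and 0.81 (SE 0.14), while Sdha differed by -0.06 (adjusted p = 0.71) and Sdhc by -0.14 (adjusted p = 0.21). Sdha was called in the first part of the libraries, at -0.31 (adjusted p = 0.026), and Sdhc in the second, at -0.29 (adjusted p = 0.015). Sdha followed the split of the libraries in doxorubicin vehicle hearts, at 1435 and 1366 CPM in the first part and 2006 and 1989 CPM in the second. Sdhb and Sdhd rose with NMN by 0.36 and 0.59. The Sdhb rise was lost without doxorubicin vehicle heart 1 (0.31, edgeR adjusted p = 0.076) or 2 (0.27, adjusted p = 0.073) or doxorubicin NMN heart 3 (0.35, adjusted p = 0.068) or 4 (0.29, adjusted p = 0.087). The Sdhd rise was lost within the first part of the libraries, at 0.28 (adjusted p = 0.11).

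Among 13 genes that control the entry of pyruvate, 6 fell with doxorubicin, 2 rose and 5 did not pass, and with NMN 6 rose, 2 fell and 5 did not pass (edgeR), beside the same 48.7% and 36.3% of all genes. Pdhb, a subunit of pyruvate dehydrogenase, fell by 0.94 (SE 0.14), its partner Pdha1 differed by -0.18 (adjusted p = 0.15; called in 4 of 33 alternative fits), and Mpc2, of the mitochondrial pyruvate carrier, fell by 0.87 (SE 0.13). Pdp2, the phosphatase that activates pyruvate dehydrogenase, fell by 1.50 (SE 0.16, edgeR adjusted p = 3.9e-06) and rose with NMN by 1.36 (SE 0.16). The inhibitory kinases Pdk1 and Pdk4 both rose with doxorubicin, Pdk1 by 0.58 (SE 0.08) and Pdk4 by 3.74 (SE 0.75, edgeR adjusted p = 7.1e-04). Pdk4 differed by library: it was at 4392 and 5452 CPM in doxorubicin vehicle hearts 1 and 2 and at 321 and 359 CPM in hearts 3 and 4, against 103, 202, 257 and 226 CPM in sham vehicle hearts. Its log2 change was 5.02 in the first part and 0.48 in the second, both called. With NMN Pdk4 fell by 3.59 (SE 0.74) over all hearts, by 4.84 in the first part, and in the second, with 1 NMN heart, it differed by 0.087.

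Of 14 genes of anaplerosis, which refills the cycle, and of the shuttles across the inner membrane, 6 fell with doxorubicin and 8 did not pass (edgeR), and with NMN 5 rose and 1 fell. All genes were called at 48.7% and 36.3%, the background also for the next lists. Slc25a13 and Slc25a11, which encode carriers of the malate-aspartate shuttle, fell by 1.22 (SE 0.13) and 0.63 (SE 0.09) and rose with NMN by 1.01 and 0.55. Mdh1, the cytosolic malate dehydrogenase, fell by 0.72 (SE 0.10) and rose by 0.60. Pcx, pyruvate carboxylase, differed by 0.31 with doxorubicin (SE 0.23, adjusted p = 0.28). The list of 7 cytosolic counterparts, which shares 3 genes with the one before, had 3 lower and 4 not called with doxorubicin, and 2 higher and 2 lower with NMN. Of 7 genes for the assembly of succinate dehydrogenase and for lipoylation, the lipoic acid attachment that Dlst needs, 6 could be tested: 3 fell and 1 rose with doxorubicin, and 3 rose with NMN. Sdhaf4, an assembly factor of succinate dehydrogenase, fell by 1.38 (SE 0.29, edgeR adjusted p = 9.7e-04) and rose with NMN by 1.31 (SE 0.29).

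Of 11 regulators of mitochondrial genes, 9 fell with doxorubicin, 1 rose and 1 did not pass, and with NMN 9 rose, 1 fell and 1 did not pass (edgeR), beside the 23.9% of all genes lower and 17.5% higher. Perm1, a muscle regulator of oxidative genes, fell by 1.50 (SE 0.22, edgeR adjusted p = 6.8e-05) and rose by 1.54 (SE 0.22). It was at 414, 420.0, 418 and 377 CPM in sham vehicle hearts, at 203, 199, 86.5 and 86.7 CPM in doxorubicin vehicle hearts, and at 429, 410.4, 407 and 422 CPM in doxorubicin NMN hearts. The doxorubicin vehicle hearts lay below all others, those of the second part lowest. The sizes of several falls differed between the parts of the libraries, with all of them called in each: Perm1 was at -1.06 in the first and -2.21 in the second, Sirt3 at -0.70 and -1.83, Sdhaf4 at -0.81 and -2.22, and Sdhd at -0.49 and -1.17. Esrrg, a receptor that binds the AAGGTCA motif searched above, fell as well, at -0.84 in the first part and -1.23 in the second, and Sirt3, the mitochondrial NAD-dependent deacetylase, fell by 1.19 (SE 0.19). Nrf1, a transcription factor of nuclear genes for the respiratory chain, was the one that rose, by 0.56 (SE 0.13, edgeR adjusted p = 0.0020), but within the first part its difference was 0.29 (adjusted p = 0.15). In sham NMN against sham vehicle and in doxorubicin NMN against sham NMN hearts, edgeR called 0 genes of any of these lists.

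The 9 genes were also fitted separately in each part of the libraries. In each part 6 of the 9 were called lower and 1 higher with doxorubicin, as over all hearts. Over all genes edgeR called 4121 in the first part (2041 higher, 2080 lower) and 9469 in the second (4769 higher, 4700 lower). Each of these fits filtered the genes anew, so these counts are not given as shares and the background differed between the parts. The genes called among the 9 were not all the same in both parts. In the first part Idh3b was called lower, at -0.29 (SE 0.10, edgeR adjusted p = 0.038), and Mdh2 was not called, at -0.30 (SE 0.12, adjusted p = 0.093). In the second part Mdh2 was called, at -0.28 (SE 0.09, adjusted p = 0.017), and Idh3b was not, at 0.036 (adjusted p = 0.75). Cs was nearly the same in both, at -0.80 (SE 0.14) and -0.79 (SE 0.09). With NMN before doxorubicin the first part gave 4 higher and 0 lower, Fh1 among them at 0.41 (edgeR adjusted p = 0.0096). There edgeR called 3224 of all genes, 1606 higher and 1618 lower. No call of the second part is given for comparisons with NMN, since each NMN group has 1 heart there; the log2 differences in it were 0.40 for Suclg1 and 0.10 for Fh1. No test of the difference between the parts was made. The interaction was called for none of the 9 in the first part, with Cs at 0.56 (edgeR adjusted p = 0.079), and for 3 of 9 with the split as a term in the fit of all libraries.

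**Figure D4:**
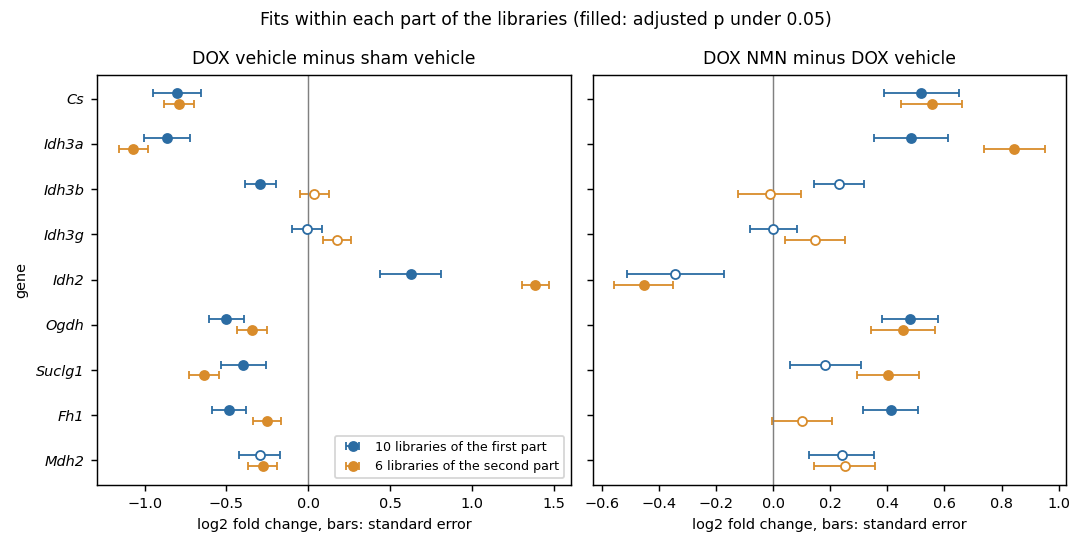
Log2 fold changes with standard errors (horizontal axes) of the 9 genes, fitted within the 10 libraries of the first part (blue) and the 6 of the second part (orange). The left panel is doxorubicin vehicle minus sham vehicle, and the right panel is doxorubicin NMN minus doxorubicin vehicle. Filled points passed the test. On the right the second part rests on 1 doxorubicin NMN heart, so the fill of its points there is not to be read as a call. The 2 points of Cs and those of Mdh2 lie close together in both panels. On the left Ogdh lies at -0.50 and -0.35, and Idh2 at 0.62 and 1.39.

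Among 8286 other genes with a mean of at least 10 CPM, the one whose pattern over the 16 libraries was nearest to the mean of the 9 was Got2, the mitochondrial aspartate aminotransferase of the malate-aspartate shuttle, with a root mean square distance of 0.0419 in log2 CPM. Slc25a12, Ndufa10, Txn2, mt-Cytb, Atp5j, Nap1l4, Phyh, Mfn1 and Grsf1 followed, at 0.0547 to 0.0665. Got2 itself was not called with doxorubicin, at -0.17 (SE 0.10, edgeR adjusted p = 0.17), and the mean of the 9 includes Idh2, which rose. The 9 genes themselves differed from their mean by 0.0563 (Mdh2) to 0.552 (Idh2), since Idh2 moved against the others. For Idh3a the nearest other gene was Dlst (0.0572), for Idh3b Hibadh (0.0541) and then Sdha (0.0592), and for Mdh2 Ndufa10 (0.0421).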

How the data were processed

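RNA of 16 mouse hearts was extracted with TRIzol and made into libraries with the NEBNext Ultra RNA kit, per the labels' protocols; that kit does not mark strand. Reads were aligned with HISAT2 2.1.0 and counted per gene with HTSeq 0.6.0 on mm10, per the submitters' processing notes. The authors deposited whole-number counts and FPKM values per gene, with gene positions and lengths. Counting settings and the annotation release: not given in the sources used here.

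From the counts, edgeR 4.0.16 in R 4.3.3 (filterByExpr, TMM scaling, quasi-likelihood fit of the 4 groups over all 16 libraries) tested 14716 genes in 5 contrasts, with Benjamini-Hochberg adjustment over all of them and calls at 0.05. An adjusted p without a named tool in the same sentence is edgeR's. CPM is a count scaled to 1000000 counts of the library's total times its TMM factor. Log2 ratios used a prior count of 2 and exact two-sided permutation tests. DESeq2 1.42.0, limma 3.58.1 (voom on counts, trend on log2 of deposited FPKM plus 0.1 or 1), other scalings and filters, the replicate number as a term and leaving out each library were alternatives. The split of the libraries at the largest gap in the mean log2 CPM of Scand1, Cox11 and Mrps34, and fits within its parts, were added after the data were seen. Of these methods, only the edgeR fit was tested on simulated counts, which held no split of the libraries.

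The 9 genes and the other lists were chosen with earlier results of these data known. Named genes were the 9, a fixed set of further cycle genes, up to 5 of each list with the smallest p, and those called against their list; 1 listed gene is not reported here. With 13927970 to 16400069 counts in each of the 16 libraries, counting error is small beside the spread between libraries of a group. That spread, which edgeR calls the biological coefficient of variation, was 19.4%. It includes the split of the libraries and may in part be technical.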

Additional observations from a re-analysis of the deposited data

Results flagged for a closer look

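In 36 sets of 4 hearts (9 genes in 4 groups), 2 single hearts lay far from the other three by Dixon's criterion, where chance gives about 1 in 20. Idh3g was at 667 CPM in doxorubicin NMN heart 4, the one heart of that group in the second part of the libraries, against 455 to 479.6 CPM in the other three. Ogdh was at 2149 CPM in doxorubicin vehicle heart 3, against 1859 to 1890.4 CPM in the other three. The doxorubicin effect differed with and without NMN, by the edgeR interaction test, for Cs (0.57 on the log2 scale), for Idh3a (0.68) and for Ogdh (0.43).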

How the results depend on the processing

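In 33 alternative fits, the doxorubicin falls of Cs, Idh3a, Ogdh and Suclg1 and the rise of Idh2 kept direction and call. The main fit called at 0.01 is counted among these fits. The rises of Cs, Idh3a and Ogdh with NMN kept direction in all of them. Leaving aside the second part, for which no call with NMN is given, these rises also kept the call. The replicate numbers did not pair the hearts: 5 of 24 pairs of same-numbered hearts correlated above 0.1, and 5 of 16 hearts matched their own number best. With a replicate block, the calls among the 9 genes numbered as without it: 7 for doxorubicin (median -0.35), 4 for NMN before doxorubicin (0.22), 3 for the interaction (0.27), and 0 for sham NMN against sham vehicle (-0.071) and for doxorubicin NMN against sham NMN (-0.0197). Over all genes the block gave 7186, 5347 and 2614 calls in the first 3 of these. In the second part each NMN group is 1 heart, assumed to vary like the others, so no count of calls with NMN is given. For doxorubicin NMN against sham NMN, 1 heart against 1, the median of the 9 genes there was 0.16. The interaction gave 1 call at an adjusted p under 0.01 and 0 in the first part alone, with a median of 0.48 in the second. Leaving out one heart gave 0 to 10 ratios passing. Signs turned mostly for genes that were not called. With one heart left out, the doxorubicin difference ran from -0.22 to 0.0054 for Idh3b and from -0.14 to 0.032 for Sdha. The NMN difference ran from -0.090 to 0.13 for Idh3b, from -0.20 to 0.018 for Idh3g and from -0.071 to 0.11 for Sdha. The interaction ran from -0.013 to 0.21 for Idh3b and from -0.063 to 0.15 for Idh3g. Upper-quartile scaling gave 0.021 for Idh3g with NMN and -0.032 for Suclg2 with doxorubicin, and the split as a term gave 0.014 for Idh3g with NMN. The first part alone gave with doxorubicin -0.31 for Sdha (called), -0.010 for Idh3g, -0.037 for Suclg2 and 0.0047 for Sdhc, and with NMN 0.0011 for Idh3g and -0.085 for Sdhc. The second part alone gave with doxorubicin 0.036 for Idh3b and 0.14 for Sdha, and with NMN -0.012 for Idh3b, 0.15 for Idh3g, -0.058 for Sdha and 0.087 for Pdk4, whose fall was called over all hearts. Over all genes, doxorubicin gave 4121 calls in the first part against 7170 in all hearts. NMN gave 3011 at 0.01, 3309 in the fit of 2 groups and 3224 in the first part, against 5336. The interaction gave 873 at 0.01 and 1364 in the first part, against 2714. It gave 4178 without doxorubicin vehicle heart 2, 1783 without heart 4, 1757 without sham NMN heart 3, and 1722 and 1720.0 without doxorubicin NMN hearts 2 and 3. By limma on FPKM it gave 608 higher and 959 lower without a filter, and 978 and 1426 with a pseudocount of 1, against 1396 and 1318. Sham NMN against sham vehicle gave 3 calls by limma on unfiltered FPKM and 2 in the first part. Doxorubicin NMN against sham NMN gave 4 without a filter on counts and 4 by limma on unfiltered FPKM. The causes were not tested.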
